A study of Homo sapiens with 7 samples.

Results

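EBF2 occupancy was described from 2 lists of enriched intervals, 1 from SW1990 cells with a negative control shRNA (NC) and 1 from the same line with KMT2D knocked down by shRNA (KMT2D-KD). SW1990 is an established human pancreatic cancer line. All intervals of both EBF2 lists were taken, 293 in NC and 311 in KMT2D-KD, which made 604 of the 158138 intervals in the 6 lists of the study. An interval of one list was taken as found in the other when the pair overlapped by at least 1 base. The other 4 lists were made with antibodies against KMT2D and H3K4me1 in the same cells, and all 6 were called against 1 SW1990 input, whose condition the labels do not give. Each target had 1 library per condition, so every difference below is a difference between 2 libraries, without a replicate check and without a test. The labels give shRNA as the treatment of both, the deposited data name 1 knockdown line, and the KMT2D level of that line was not analysed here. Cell identity could not be checked from interval lists.

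EBF2 is an early B-cell factor, a DNA-binding transcription factor best known for driving brown and beige fat cell identity. Factors of this family bind a palindromic site with the core CCCNNGGG (N is any base). KMT2D is a methyltransferase that places H3K4me1, monomethylated lysine 4 of histone H3, at enhancers, and the study examined EBF2 as a reader of that mark. In both conditions the leading EBF2 intervals lay on tandem repeats, in which a short unit follows itself head to tail.

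Some of the units are shown first, because repeats of this kind were what most EBF2 intervals had in common. Each line gives 80 bases around the summit of the interval with the highest −log10 q for 1 of 5 units among the 10 most frequent, read 5′ to 3′ on the plus strand of hg38. Capitals mark exact copies of the unit, in any phase and on either strand.

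AG, TRERF1 intron, chr6:42262463-42262542: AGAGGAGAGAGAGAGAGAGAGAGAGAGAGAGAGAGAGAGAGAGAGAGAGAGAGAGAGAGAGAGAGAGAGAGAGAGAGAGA
AC, intergenic, chr1:224751012-224751091: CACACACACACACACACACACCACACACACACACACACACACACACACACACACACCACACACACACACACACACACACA
AGAGAGGG, intergenic, chr13:113557774-113557853: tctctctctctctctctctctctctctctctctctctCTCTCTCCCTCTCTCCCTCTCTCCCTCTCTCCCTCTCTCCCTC
AGAGG, CDK14 intron, chr7:90895338-90895417: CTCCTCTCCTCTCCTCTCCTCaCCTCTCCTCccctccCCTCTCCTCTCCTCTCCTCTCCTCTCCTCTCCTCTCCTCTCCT
ACTC, POLG intron, chr15:89325103-89325182: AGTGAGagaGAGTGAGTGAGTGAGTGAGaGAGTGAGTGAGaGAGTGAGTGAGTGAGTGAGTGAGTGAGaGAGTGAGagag

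A tandem score measured how repetitive each interval was. It is the share of bases that match the base a fixed shift further on, at the best shift of up to 100 bases, rescaled so that base composition alone gives 0 and a perfect repeat gives 1. Intervals with a score of at least 0.5 were called short tandem repeats. These made up 180 of 293 NC intervals (61.4%, exact binomial 95% interval 55.6% to 67.0%) and 197 of 311 KMT2D-KD intervals (63.3%, 57.7% to 68.7%). Among 146865 windows of 300 bases laid every 20 kb along the genome, 0.404% reached that score. The NC intervals closest to the threshold scored 0.495 and 0.502, and 31 NC and 35 KMT2D-KD intervals scored between 0.4 and 0.5. These and all other intervals in brackets cover counting error only.

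Units built from A and G alone, such as AG, AGG and AGAGG, formed the largest family, with 60 NC and 61 KMT2D-KD intervals. The simple AG repeat accounted for 31 of them in NC and 36 in KMT2D-KD. One strand held at least 90% purines in 88 NC and 94 KMT2D-KD intervals, against 0.0381% of the genome windows. Units of over 10 bases outside the named families followed, with 40 intervals in NC and 46 in KMT2D-KD. Units made of ACC and ATC triplets had 26 and 30. The telomeric unit AACCCT, which caps human chromosomes, was the unit of 20 NC and 18 KMT2D-KD intervals. Units that mix AC with AG steps were found in 16 NC and 21 KMT2D-KD intervals, and the plain AC repeat in 7 and 9. Over all short tandem repeats, the named families included, the units were varied. NC had 92 distinct units and KMT2D-KD had 101, and 76 and 84 of them were seen at a single interval. The shares of the families in NC and KMT2D-KD were within counting error of each other, for example 20.5% (16.0% to 25.6%) and 19.6% (15.4% to 24.5%) for units of A and G.

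**Figure D1:**
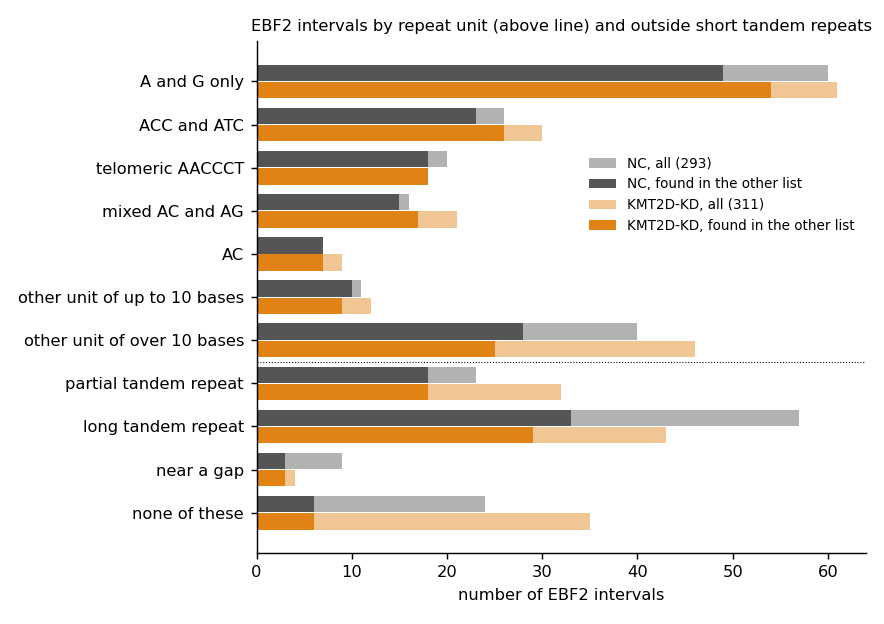
Number of EBF2 intervals (x axis) for each family of repeat unit, above the dotted line, and for intervals outside short tandem repeats, below it. Pale bars are all intervals of a list and dark bars those found in the other list. The A and G family has 60 NC and 61 KMT2D-KD intervals, while most of the 24 and 35 intervals in none of the repeat classes are pale.

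The 10 leading intervals by −log10 q were the same places in NC and KMT2D-KD, and all 10 were short tandem repeats. The first, an ACAGAGAG repeat that was intergenic at chr7:157461262-157461688 and nearest to the start of DNAJB6, had 2618 fragments at its summit in NC and 2862 in KMT2D-KD. An intron of TRERF1, a zinc finger transcription regulator, had 2100 and 2162 fragments. An intron of ANAPC7, a subunit of the anaphase-promoting complex, had 2172 and 2430. These 3 counts were higher in KMT2D-KD although that library was shallower as judged from its lowest background. Depth was 6.12 fragments per 1000 bases of genome in KMT2D-KD against 6.84 in NC. The remaining places were an intron of RFLNA, which encodes a filamin-binding protein, an intron of the zinc transporter gene SLC39A14, an intron of KIAA1671, an intron of SLC30A4-AS1 and intergenic repeats on chromosomes 8, 12 and 14. The SLC39A14 intron had fewer fragments in KMT2D-KD, 726 against 748 in NC, and the RFLNA intron had 931 against 928. Fold enrichment over the input at the 10 places ran from 197 to 774 in NC and from 229 to 980 in KMT2D-KD. At each of the 10 it was higher in KMT2D-KD.

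KMT2D and H3K4me1 were listed at the same repeats. At the TRERF1 repeat the KMT2D fold enrichment was 617 in NC and 924 in KMT2D-KD, beside 774 and 852 for EBF2. At the ANAPC7 repeat KMT2D gave 290 and 423, beside 312 and 381 for EBF2. For H3K4me1 the ANAPC7 repeat had fold enrichments of 22.3 and 61.2, and the TRERF1 repeat was in the KMT2D-KD list alone, at 233. All 10 places were in the KMT2D list of the same cells in both conditions. In H3K4me1, 5 of the 10 were listed in NC and 10 of 10 in KMT2D-KD. All 6 libraries were called against the same input.

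**Figure D2:**
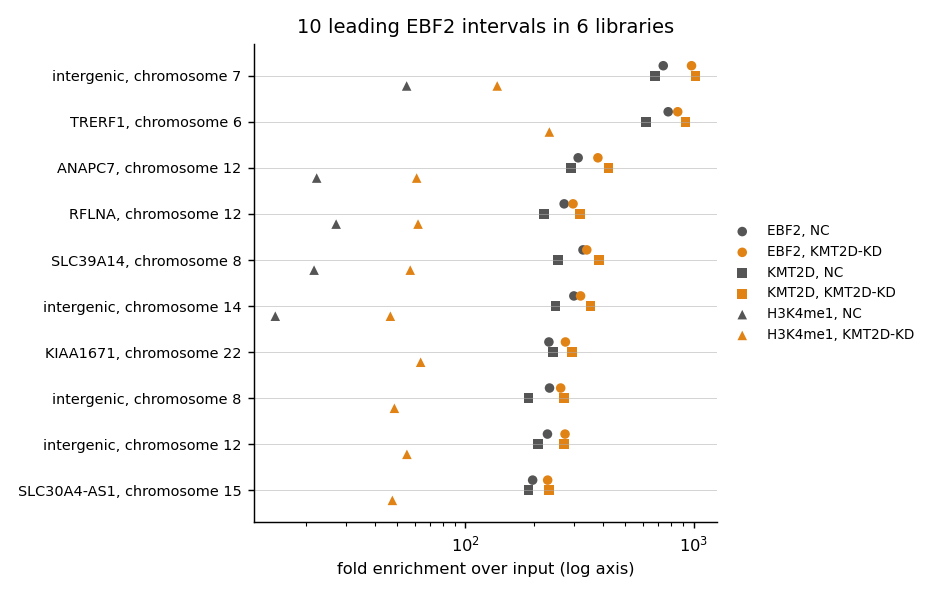
Fold enrichment over the input (log axis) at the 10 leading EBF2 intervals in the 6 libraries, ordered by −log10 q in NC EBF2. Circles are EBF2, squares KMT2D and triangles H3K4me1, grey for NC and orange for KMT2D-KD, and a missing triangle means that the place was not listed. EBF2 lies between 197 and 980 and H3K4me1 below it at every place.

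Of the NC EBF2 intervals, 210 of 293 (71.7%, 66.1% to 76.8%) had a KMT2D-KD counterpart. In the other direction 212 of 311 (68.2%, 62.7% to 73.3%) had an NC counterpart. Beside this background for EBF2 as a whole, the counts for short tandem repeats were 150 of 180 in NC (83.3%, 77.1% to 88.5%) and 156 of 197 in KMT2D-KD (79.2%, 72.8% to 84.6%). The telomeric repeats were nearly all shared, 18 of 20 in NC and 18 of 18 in KMT2D-KD. Plain AC repeats were found for 7 of 7 NC intervals and 7 of 9 KMT2D-KD intervals. The lowest share among repeat families was that of units longer than 10 bases, with 28 of 40 in NC and 25 of 46 in KMT2D-KD. For comparison, 75.6% of NC KMT2D and 69.7% of NC H3K4me1 intervals had a KMT2D-KD counterpart, and 56.9% and 46.6% in the other direction.

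At intervals in both lists, fold enrichment could be set side by side. KMT2D-KD was higher at 147 of the 210 pairs and lower at 63, and the median log2(KMT2D-KD / NC) was 0.15, with quartiles of -0.04 and 0.39. The other targets also leaned upward. KMT2D-KD was higher at 148 of 180 KMT2D pairs, with a median of 0.34, and at 31235 of 45195 H3K4me1 pairs, with 0.22. A difference of at least 1.5 times was seen upward at 23 of 210 pairs (11%) and downward at 7 (3.33%). The same upward difference was seen at 27.8% of the KMT2D and 19.8% of the H3K4me1 pairs, and the downward one at 2.22% and 2.69%. The shift differed between repeat classes. Short tandem repeats had a median of 0.21 and were higher in KMT2D-KD at 112 of 150 pairs, while long tandem repeats had a median of -0.0027 and were higher at 15 of 33. Background at the summits, as recovered from fold enrichment and p-value, had a median log2 ratio of -0.18 over all pairs. A pair at the lowest background of both lists, 1.14 in NC and 1.01 in KMT2D-KD, had the same log2 ratio.

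The widest gaps upward were at an AG-rich repeat in an intron of LINC02755, where fold enrichment was 6.53 in NC and 13.9 in KMT2D-KD, and at a triplet repeat in an intron of HPCAL1, a neuronal calcium sensor gene, with 5.43 and 11.1. LINC02755 had 25 and 33 fragments on backgrounds of 2.98 and 1.45. HPCAL1 had 16 and 23 on 2.13 and 1.15, so both fragments and background differed at these places. By fragments per depth their log2 ratios were 0.58 and 0.70. An intergenic ACC repeat at chr21:31784751-31785203 went from 45 to 92 fragments, and from a fold of 9.52 to 19.2. The AC repeat at chr7:150909724-150910118 had folds of 5.98 and 11.9, and a triplet repeat at chr22:20162287-20163170 had 5.62 and 11.1 on backgrounds of 2.56 and 1.26. The widest gap downward was a partial repeat at chr3:96673133-96673492, with 21 fragments in NC and 10 in KMT2D-KD and folds of 10.3 and 5.47. At chr10:40980971-40981276 the folds were 8.35 and 4.78 with 36 and 35 fragments, on backgrounds of 3.43 and 6.54. Fragment counts were also close at chr1:143202661-143202893, with 564 and 563 fragments and folds of 4.14 and 2.41. The ATC repeat in SORBS2, an adaptor of the actin cytoskeleton, had folds of 22.6 and 14.6 with 57 and 53 fragments on backgrounds of 1.57 and 2.69, and a repeat in RIMBP2, a gene of the presynaptic active zone, had 8.32 and 5.42. No pair differed by 2 times downward, and 3 did so upward, of which the chr21 repeat alone had a log2 ratio over 1 by fragments per depth, at 1.21.

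**Figure D3:**
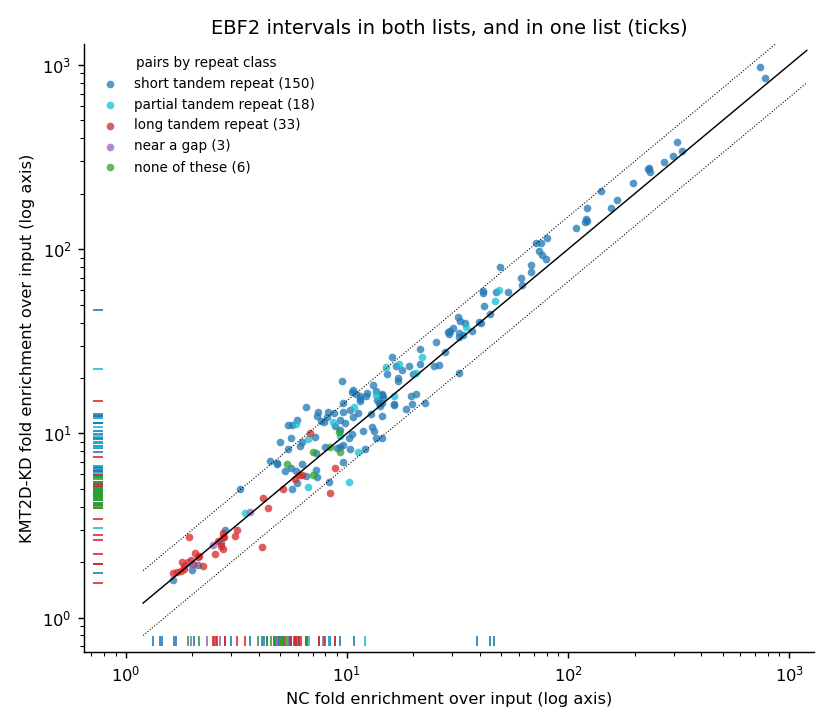
Fold enrichment over the input in NC (x, log axis) and KMT2D-KD (y, log axis) for the 210 EBF2 intervals in both lists, coloured by repeat class. The solid line is equality and the dotted lines mark 1.5 times, with ticks along the axes for intervals in 1 list alone. Short tandem repeats reach 980 and mostly lie above equality (112 of 150), and long tandem repeats lie at low folds, with 15 of 33 above it.

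Over all EBF2 intervals, 75 of 293 in NC (25.6%, 20.70% to 30.997%) and 100 of 311 in KMT2D-KD (32.2%, 26.99% to 37.66%) overlapped H3K4me1 of the same cells. Of the short tandem repeats, 28 of 180 in NC (15.6%, 10.6% to 21.7%) and 59 of 197 in KMT2D-KD (29.9%, 23.6% to 36.9%) did so. At the 150 NC short tandem repeats that were in both EBF2 lists, 21 places had H3K4me1 in both conditions, 31 in KMT2D-KD alone and 2 in NC alone. Where both listed it, the H3K4me1 fold enrichment was higher in KMT2D-KD at 20 of 21, with a median log2 ratio of 1.19. Over all H3K4me1 pairs it was higher at 31235 of 45195, with a median log2 ratio of 0.22. Of the telomeric repeats 1 of 20 was on H3K4me1 in NC and 7 of 18 in KMT2D-KD, and of the repeats of A and G 6 of 60 and 19 of 61. The KMT2D-KD H3K4me1 list was the longer one, and its intervals met 2.64% of the genome windows against 1.75% in NC, and the part of that difference in these counts was not tested. Among long tandem repeats, 39 of 57 NC intervals (68.4%, 54.8% to 80.1%) and 25 of 43 KMT2D-KD intervals (58.1%, 42.1% to 73.0%) lay on H3K4me1. At the 33 NC long tandem repeats in both EBF2 lists, 22 places had H3K4me1 in both conditions, and its fold was higher in KMT2D-KD at 3. Where listed at these 33, H3K4me1 had low median folds, 2.36 in NC and 1.90 in KMT2D-KD.

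KMT2D of the same cells overlapped 188 of 293 EBF2 intervals in NC (64.2%, 58.4% to 69.7%) and 213 of 311 in KMT2D-KD (68.5%, 63.0% to 73.6%). It covered 131 of 180 short tandem repeats in NC (72.8%, 65.7% to 79.1%) and 162 of 197 in KMT2D-KD (82.2%, 76.2% to 87.3%). KMT2D intervals met 0.00681% of the genome windows in NC and 0.00885% in KMT2D-KD. The KMT2D list of KMT2D-KD was the longer one, with 318 intervals against 238. The part of that difference in these counts was not tested. Every one of the 18 telomeric repeats in KMT2D-KD and 17 of 20 in NC was also a KMT2D interval. Of the 210 NC intervals in both EBF2 lists, 7 overlapped no KMT2D interval of either condition. EBF2 intervals in 1 list alone met KMT2D of the same cells in 12 of 83 in NC and 18 of 99 in KMT2D-KD, against 83.8% and 92.0% of the shared ones. Their overlap with H3K4me1 was 20 of 83 and 15 of 99.

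**Figure D4:**
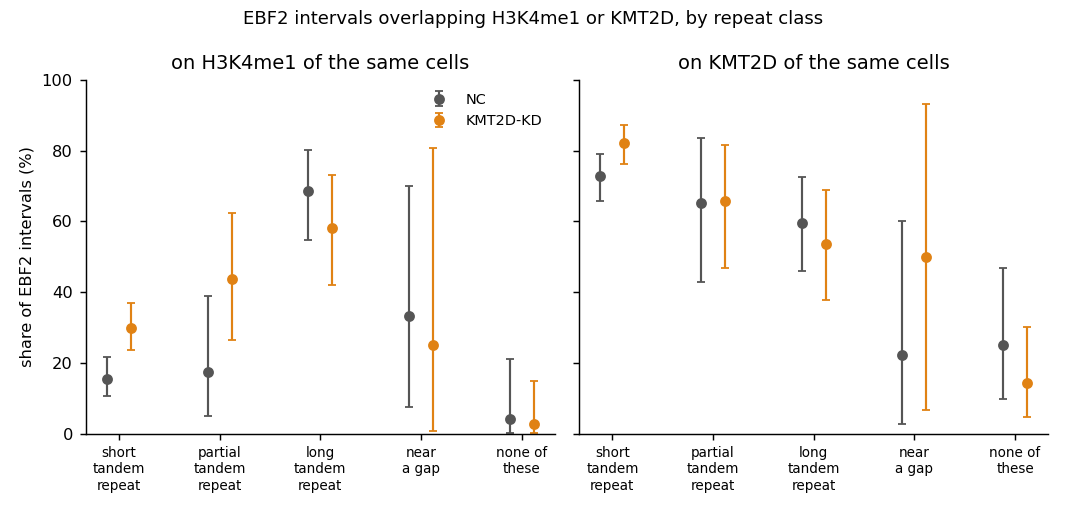
Share of EBF2 intervals (y axis, %) overlapping H3K4me1 (left) or KMT2D (right) of the same cells, for each repeat class in NC (grey) and KMT2D-KD (orange). Points are shares and bars exact binomial 95% intervals. For short tandem repeats H3K4me1 stands at 15.6% in NC and 29.9% in KMT2D-KD, and for intervals in none of the classes at 4.17% and 2.86%.

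Intervals in 1 list alone had fewer fragments by the median. In NC 83 intervals were not found in KMT2D-KD, with a median of 18 fragments at the summit against 46.5 for shared intervals. In KMT2D-KD 99 were not found in NC, with medians of 14 and 49.5. A count of 12 fragments or fewer was the basis of 24 of the 83 and of 44 of the 99, against 5 of 210 and 11 of 212 shared intervals. A −log10 q of at least 5 was reached by 53 of the 83 and 45 of the 99. Over the whole lists it was reached by 257 of 293 and 248 of 311. The highest rank of such an interval was 41 in NC and 45 in KMT2D-KD. Among the 100 leading intervals, 93 in NC and 98 in KMT2D-KD were shared.

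A few strong exceptions stood out by their counts. An AG repeat in an intron of PITPNM3 had 124 fragments and a fold of 46.2 in NC and no KMT2D-KD EBF2 interval, although KMT2D was listed there in KMT2D-KD. An AG repeat in an intron of HECW1, which encodes a ubiquitin ligase, had 97 fragments and a fold of 44.3 in NC and was in no KMT2D list. A telomeric repeat at chr17:113140-113332 had 82 fragments and a fold of 38.7 in NC. In KMT2D-KD the strongest was an AG repeat in an intron of CCDC200, with 118 fragments and a fold of 46.9, and it was a KMT2D interval of the same cells. An intron of SHANK2, a scaffold gene of excitatory synapses, followed with 51 fragments and a fold of 22.4, and then an intron of MAN2B2 with 44 and 14.9. An AG repeat in JAKMIP3 had 28 fragments and a fold of 12.8, and LINC00486 had 80 fragments at a background of 13.8. In NC the 5 leaders also included repeats at chrY:11324551-11324729 and chr21:7926331-7926521, with folds of 2.52 and 1.69 on backgrounds of 189 and 665 fragments. Outside short tandem repeats, those next in order in NC were an intron of DUX4 in the subtelomeric array of chromosome 4, with a fold of 3.20, and repeats at chr5:49645994-49646175, chrY:11318663-11318995 and chr22:11814709-11814883, with 5.84, 2.47 and 2.83. In KMT2D-KD they were chr4:49316866-49317075 and an intron of SPAG16, with 3.44 and 12.1.

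**Figure D5:**
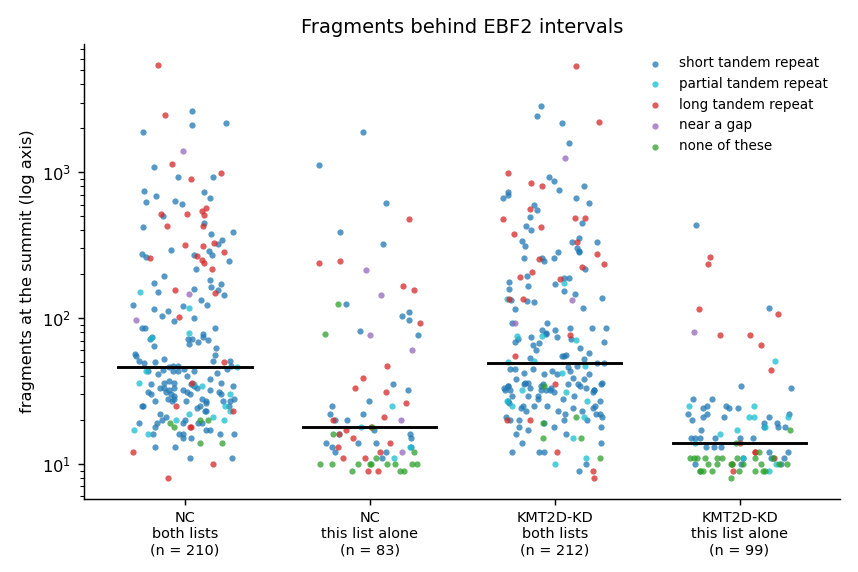
Fragments at the summit (y, log axis) of EBF2 intervals in both lists and in 1 list alone, for each condition, coloured by repeat class, with black bars at the medians. Medians are 46.5 and 18 for NC and 49.5 and 14 for KMT2D-KD, and intervals in none of the repeat classes crowd at the bottom.

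Host genes were next examined. The summit lay in a protein-coding gene for 83 of 293 NC intervals (28.3%, 23.2% to 33.9%) and 106 of 311 KMT2D-KD intervals (34.1%, 28.8% to 39.6%), below the 44.4% of genome windows centred in such a gene. Nearly all of these were intronic. The lists named 82 protein-coding genes in NC and 107 in KMT2D-KD, and 61 were in both, which is 74.4% of the NC genes and 57.0% of the KMT2D-KD genes. Within 1000 bases of a protein-coding 5′ end lay 3 intervals of each list, 1.02% in NC and 0.965% in KMT2D-KD, near the 1.27% of windows. An AG repeat beside GOLM2, at chr15:44288400-44288598, was 203 bases from the 5′ end in both lists, with folds of 62.1 and 64.2. An ACAGAG repeat near the start of COL6A1, a collagen VI chain gene, had folds of 41.3 and 57.8. The other promoter intervals, in USP17L22 in NC and beside the start of ENSG00000272442 in KMT2D-KD, rested on 20 and 9 fragments and were not shared.

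A few genes held 2 intervals. MYT1L, a neuronal zinc finger gene, had an AG repeat with folds of 80.3 in NC and 115 in KMT2D-KD and a second array with 9.33 and 10.4. MAL, a gene of myelin and lymphocyte membranes, had arrays of ACTC-type units with folds of 32.1 and 19.1 in NC, against 33.5 and 23.2 with KMT2D knocked down. CAMTA1, a calmodulin-binding transcription activator, had an ATC repeat with a fold of 25.3 in NC, beside 13.8 and 31.5 at the 2 KMT2D-KD intervals overlapping it. A neighbouring CAMTA1 array, with a fold of 5.999, was called in NC alone. The lncRNA gene SLC30A4-AS1 had a pair of ACC repeats with folds of 197 and 120 for NC and 229 and 140 for KMT2D-KD, and LINC02646 and ITFG2-AS1 had a pair each. CFAP46, a gene of motile cilia, and the ROCK1 pseudogene ROCK1P1 also held a pair in both lists. SIN3B, a corepressor gene, and PTPRN2 reached a second interval in KMT2D-KD alone, with 24 and 10 fragments. The lncRNA gene ENSG00000289950 did so in NC alone, where the second interval had 9 fragments, a fold of 4.37 and no repeat class.

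Only 1 interval of each list had its summit in a coding exon, and neither was shared. In NC it was in USP17L22, 1 of a block of near-identical ubiquitin protease genes, where the 31-base words of the interval occurred a median of 21 times in hg38. In KMT2D-KD it was in ZNF248, a gene of the zinc finger family, where the repeat unit was 84 bases long.

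Genes tied to EBF2 biology were looked up whole. Neither list had an interval in the gene body or within 5000 bases of the 5′ end of any of the 10 genes the study names, the 6 EBF family and partner genes, the 11 brown adipocyte genes or the 10 B-cell genes, 0 of 37 in all. Of all 20033 protein-coding genes, the same lookup gave a hit for 0.469% with the NC list and 0.589% with the KMT2D-KD list, so that a count of 0 in a list of this size is near the background. The core CCCNNGGG was within 100 bases of the summit in 4 NC intervals (1.37%, 0.373% to 3.46%) and 2 KMT2D-KD intervals (0.643%, 0.0780% to 2.30%), against 3.07% of genome windows. One was the TRERF1 repeat, in both lists.

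By position the intervals leaned to chromosome ends. Within 5 Mb of an end lay 87 of 293 NC intervals (29.7%, 24.5% to 35.3%) and 99 of 311 KMT2D-KD intervals (31.8%, 26.7% to 37.3%), against 7.07% of the genome windows. Most were short tandem repeats, of which 73 of 180 and 80 of 197 lay there. Outside short tandem repeats 14 of 113 and 19 of 114 did so, including 4 of 57 and 4 of 43 long tandem repeats. All telomeric repeats were within 200 kb of an end, and 12 in each list were within 20 kb, where the sequenced part of the chromosome begins. The strongest telomeric repeat was not terminal: at chr18:80262891-80263283, 0.11 Mb from the end, the folds were 141 in NC and 208 in KMT2D-KD. Repeats of A and G lay farther in than the telomeric ones, with median distances to an end of 20024 kb for NC intervals and 18148 kb for those of KMT2D-KD. Even so, 14 of 60 and 15 of 61 of them were within 5 Mb of an end, a larger share than that of the windows. Chromosome 22 was the densest, with 16 intervals in each list or 4.09 per 10 Mb, followed by chromosome 21 with 11 or 2.74. The X chromosome was the sparsest, with 4 in each list or 0.26 per 10 Mb. Most intervals stood alone. Linking intervals within 100 kb gave 324 groups, of which 284 held at most 1 interval of each list.

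Long tandem repeats, whose copies lie more than 100 and up to 3000 bases apart, made up 57 NC and 43 KMT2D-KD intervals, and 33 and 29 of these were shared. They had low folds on high backgrounds. Median fold enrichment was 3.18 for NC and 2.74 for KMT2D-KD, and the background was more than 2 times the lowest of the list in 41 of 57 and 33 of 43. The largest group of all, at chr1:143192892-143266826, held 14 NC and 13 KMT2D-KD intervals with folds between 1.82 and 4.14. A window of its leading member is shown for comparison with the short units. It had 2481 fragments in NC and 2220 in KMT2D-KD, with a fold of 2.61 in both.

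long tandem repeat, intergenic, chr1:143214665-143214744: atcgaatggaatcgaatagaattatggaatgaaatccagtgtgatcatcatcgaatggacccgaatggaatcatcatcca

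Partial tandem repeats, with a score of at least 0.7 in some stretch of 50 bases, made up 23 NC and 32 KMT2D-KD intervals, and their folds reached 48.6 in NC and 59.7 in KMT2D-KD. The intergenic one at chr1:104507843 had folds of 48.6 and 59.7 and no KMT2D interval in either condition. STKLD1, a kinase-like gene, had 47.0 and 52.6, FAM83F had 34.5 and 37.8, and TUBGCP3, a gene of the gamma-tubulin complex, had 21.9 and 25.9. Introns of CTSD, the cathepsin D gene, and PIP5K1C, a lipid kinase gene, had folds of 20.5 and 21.4, and of 14.998 and 22.9.

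Of all genome windows, 0.806% were centred within 50 kb of a gap in the assembly. Another 9 NC (3.07%) and 4 KMT2D-KD intervals (1.29%), outside the repeat classes above, lay as near to a gap. That left 24 NC intervals (8.19%, 5.32% to 11.9%) and 35 KMT2D-KD intervals (11.3%, 7.97% to 15.3%) in none of these classes. They held few fragments, and 14 of the 24 and 28 of the 35 rested on 12 fragments or fewer. Over the whole lists 29 of 293 and 55 of 311 did so. Introns held 14 and 26 of them, against 116 of 293 and 144 of 311 over the whole lists. Of the genome windows, 60.5% were centred in an annotated gene of any type. The introns included those of CSRNP3, ELMO1 and SPAG17 in NC and of IQSEC1, NTN1 and COL23A1 in KMT2D-KD, each with 9 to 11 fragments. Only 6 of each list were found in the other, and 1 of each lay on H3K4me1. By contrast 6 in NC and 5 in KMT2D-KD were KMT2D intervals. With a tandem score under 0.3 there were 17 NC and 29 KMT2D-KD intervals, and 2 of these were in both lists.

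Those 2 places were introns of CTNNA1 and HYDIN2. At CTNNA1, which encodes alpha-catenin of cell junctions, the summit held 20 fragments in NC and 21 in KMT2D-KD, with folds of 9.22 and 10.2. At HYDIN2, a copy of the cilia gene HYDIN, it held 14 and 15, with folds of 6.9995 and 7.96. Neither was free of simple sequence, since the CTNNA1 interval held 25 identical bases in a row and the HYDIN2 interval 21. Both were KMT2D intervals in both conditions. The CTNNA1 window is shown because it had the highest −log10 q in NC among shared intervals in none of the classes, and its run of T is visible.

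none of these classes, CTNNA1 intron, chr5:138671489-138671568: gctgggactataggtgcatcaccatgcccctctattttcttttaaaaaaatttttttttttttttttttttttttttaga

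The other shared places in none of the classes had higher tandem scores. An intergenic one at chr22:35593181-35593551 had 19 and 15 fragments with folds of 9.33 and 7.96. An intron of FAT3, a giant cadherin gene, had 20 fragments in NC with a fold of 8.42, an intron of GSG1L had 18 and 19, and an intron of a lncRNA at chr15:72880739-72880906 had 14 and 11. The strongest in KMT2D-KD was intergenic at chr4:3726216-3726422, with 34 fragments and a fold of 16.3, and it overlapped an NC interval that was a partial tandem repeat. Apart from CTNNA1 and HYDIN2, the tandem scores of the shared intervals in none of the classes ran from 0.379 to 0.487.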

How the data were processed

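SW1990 cells had been profiled by ChIP-seq, and 6 lists of 7 samples were used. Per the labels, the authors used BWA, MACS2 and HOMER with hg38, with no versions given, after removing adapter and poor reads with in-house perl scripts. The deposited lists hold for each interval a fold enrichment over the input (a ratio), a −log10 p-value, a −log10 q-value and a score, which is the whole part of 10 times −log10 q and was not used. The deposited positions (other) include start, end and summit. How duplicates and multiply mapped reads were handled was not given in the sources used here. Counts in repeats depend on that step.

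Genes were taken from GENCODE 44 and positions count from 1. Fragments and background at a summit were recovered from fold enrichment, taken as (fragments + 1) / (background + 1), and the Poisson p-value, with a tolerance of 0.001 in −log10 p. Whole numbers resulted for 293 of 293 NC and 309 of 311 KMT2D-KD intervals. Depth was the lowest background divided by the narrowest interval. In a pair, the overlapping KMT2D-KD interval with the highest fold was used. Long tandem repeats scored at least 0.5 at shifts over 100 and up to 3000 bases against the flanks, partial ones at least 0.7 in 50 bases at shifts of up to 20. Word copies are the occurrences of 31-base words in hg38 on either strand. No p-value was computed, since there was 1 library per group. Intervals named were the 10 leaders of each list, the 5 leaders of each list alone, the 5 widest gaps in either direction, shared intervals outside tandem repeats and genes with 2 or more intervals. Members and lists were chosen with earlier results of these data known, and the classes other than short tandem repeats after the data were seen. Partial repeat, promoter, coding exon, core motif and single-base run examples, and the weak intronic intervals named, were also chosen after their values were seen. Chromosome bands were not used here, and no sequence of chromosome 8 is shown. Example sequences of the other frequent units are not reported here. Scripts were tested on simulated data, and Python 3.11.15, numpy, scipy, pandas and pysam were used.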

Additional observations from a re-analysis of the deposited data

How the results depend on the processing

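Of 66 alternatives to 18 results, 34 stayed within the counting error or spread of the reported value, 32 moved beyond it, and the cause of the moves was not tested. The log2 ratio of interval numbers, 0.09 (-0.15 to 0.32) as listed, turned to -0.05 (-0.31 to 0.21) at -log10 q of at least 5, and both ranges hold 0. With both lists limited to -log10 q of 5 or more, 77.04% of NC and 80.2% of KMT2D-KD intervals were found in the other list, 79.8% of KMT2D-KD intervals overlapped KMT2D, and, with that limit on the KMT2D-KD list, 72.6% were short tandem repeats. Outside short tandem repeats, 53.1% and 49.1% were found, the median log2 ratio of fold enrichment was 0.01 (0.00743), 41.6% of NC intervals overlapped H3K4me1, and 50.4% and 44.7% overlapped KMT2D. The median log2 ratio was 0.22 with recovered fragments per depth, by which 26 intervals were higher and 2 lower by 1.5 times. A limit of 2 times left 3 higher and 0 lower, and dividing by the median ratio gave 10 higher and 14 lower, a balance that centring itself moves towards even. Short tandem repeats made up 72.0% and 74.6% at a score of 0.4, 48.8% and 51.1% at 0.6, and 80.9% and 77.2% with shifts over 100 bases counted, an alternative chosen after seeing the data. Summits in any annotated gene made up 39.9% and 46.6%. With H3K4me1 of both conditions, 38.6% of NC intervals overlapped it. Within 2 Mb of a chromosome end lay 19.1% and 19.9%, within 10 Mb 39.9% and 43.7%, and within 5 Mb 40.6% and 40.6% of the short tandem repeats. With 50 bases to either side of the summit, 0.341% of NC intervals held the core.

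No paired analysis was possible because each target had 1 library per condition and no result came from a test. All lists share 1 input. Fragments were recovered at summits alone, and signal under the calling threshold was not analysed here.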
